A study of Mus musculus with 6 samples.

Results

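A set of 9 genes of the floor plate and the Sonic hedgehog (Shh) pathway was followed across neural progenitor cells (NPCs) with and without Ybx1. They were chosen by name, by a rule that uses no measured value, although earlier results of these data were known. They make up 9 of the 51733 genes in the count tables. The genes are Foxa1, Foxa2, Lmx1a, Nkx2-9, Spon1, Shh, Ptch1, Gli1 and Gli3.

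RNA-seq was performed on Sox2-positive NPCs sorted from E13.5 mouse neural tubes, in 3 Ybx1-KO and 3 control libraries. Ybx1-KO embryos carried the constitutive null allele Ybx1tm1Ley in every tissue, and controls were siblings labelled wild type at Ybx1. The labels give the strain of both groups as C57BL/6. All embryos carried a Sox2-eGFP reporter (Sox2tm1Hoch), whose fluorescence defined the sorted cells, so any Sox2-expressing cell of the dissected tissue could enter the gate. In their titles, controls 1 and 2 share a first number, as do Ybx1-KO 1 and 2, without a word on what it stands for. The labels do not say how many embryos went into a library, and p-values therefore measure the spread between these libraries, which may be partly technical. The comparison asks which genes differ in level between NPCs lacking Ybx1, a DNA- and RNA-binding protein, and sibling control NPCs.

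The floor plate is the strip of cells at the ventral midline of the neural tube. Shh secreted there and by the underlying notochord binds the receptor Ptch1, which releases the membrane protein Smo from inhibition and switches the Gli factors from repressors to activators. Gli1 and Ptch1 are themselves transcribed in response, and graded signalling sets the ventral progenitor types. Foxa2 specifies the floor plate and acts on Shh itself.

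RefSeq promoter windows on GRCm38.p6, from 250 bases before to 50 bases after each start, were held for 6 of the 9 genes, namely Foxa1, Foxa2, Nkx2-9, Lmx1a, Gli3 and Ptch1. They were searched on both strands for a Gli motif (GACCACCCA), a Foxa motif (TGTTTAC), the Y-box after which Ybx1 is named (CTGATTGG) and its core (ATTGG, the reverse of a CCAAT box, also contained in the Y-box). The 2 genes with a match were the forkhead genes (for Foxa2 in the first of 3 windows), and their windows are shown from their first base to the last one that lies outside annotated exons. Capitals mark the motif letters.
Foxa2, chr2:148046970-148047219, minus strand: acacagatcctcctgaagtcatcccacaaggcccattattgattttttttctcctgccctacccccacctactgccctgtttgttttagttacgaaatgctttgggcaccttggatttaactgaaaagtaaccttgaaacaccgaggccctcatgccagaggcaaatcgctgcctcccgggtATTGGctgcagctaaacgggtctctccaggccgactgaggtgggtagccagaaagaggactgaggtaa
Foxa1, chr12:57546122-57546361, minus strand: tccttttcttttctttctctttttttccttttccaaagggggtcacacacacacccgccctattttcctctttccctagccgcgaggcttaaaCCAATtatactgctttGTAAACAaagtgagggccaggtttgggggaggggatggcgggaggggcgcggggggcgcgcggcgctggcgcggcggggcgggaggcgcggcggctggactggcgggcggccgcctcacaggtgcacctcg
The Foxa2 window held ATTGG on the strand of the gene. The Foxa1 window held ATTGG and a Foxa motif, both on the opposite strand, so that they are printed as CCAAT and GTAAACA. Over all 32851 promoter windows of this length, 37.4% held ATTGG, 3.65% the Foxa motif, 4.10% the complete Y-box and 0.253% the Gli motif. A match describes letters only.

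The 6 libraries held 4743279 to 23883542 counts on genes, and a floor of 3 counts, under which a gene is treated as not shown, corresponded to 0.126 to 0.632 CPM (counts scaled to library size). These limits cover counting error only. Ybx1-KO library 3 stood apart: it was the shallowest, 59.5% of its read pairs lay outside genes against 30.6% to 46.7% in the others, and 81.9% of 1729 olfactory, vomeronasal and taste receptor genes had a count there against 2.43% to 29.0% elsewhere. Every result below is therefore also given without that library where it moved. Ybx1 itself stood at 235, 523 and 301 normalized CPM in control libraries 1, 2 and 3 and at 124, 54.5 and 9.51 in Ybx1-KO libraries 1, 2 and 3. The groups did not overlap, but reads on Ybx1 were still counted in Ybx1-KO, and counts per gene do not show which part of the gene they came from. Its log2 fold change was -2.49 ± 0.68 (SE, n = 3 per group, edgeR adjusted p = 0.301).

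All 9 genes had a higher mean in Ybx1-KO than in control, led by Foxa2 and Lmx1a, whose groups did not overlap. Shh, Foxa1, Gli1 and Nkx2-9 had mean log2 differences above 1 with overlapping groups, Spon1 and Ptch1 stood nearer to 1, and Gli3 differed least. No gene was called by edgeR's quasi-likelihood test (Benjamini-Hochberg adjusted p below 0.05 and fold change above 1.5) among 21329 genes tested, neither a member (0 of 9) nor any other, so that the share called was 0% higher and 0% lower. At an unadjusted p below 0.05, 4 of the 9 were higher (Foxa2, Lmx1a, Shh and Foxa1) and 0 lower, where 6.96% of all tested genes were higher and 4.26% lower. The smallest adjusted p over all genes was 0.167. With DESeq2 in place of edgeR, 118 genes were called higher (0.553%) and Foxa2 was among them. Without a filter on low counts, 113 of 42828 genes were called higher (0.264%), and Foxa2 and Lmx1a were among them.

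Most genes shared this direction. Of all tested genes, 61.3% had a log2 fold change above 0, and the median gene stood at 0.31. The median of the 9 genes was 1.40, and 8 of them lay above the median gene. The exception was Gli3. Without Ybx1-KO 3 the median gene stood at -0.07, and Gli3 at 0.45 lay above it. The filter asked for a mean above 1 FPKM (fragments per kilobase of exon, scaled to library size) in a group, and 6 genes passed it in both groups. Foxa2, Nkx2-9 and Gli1 passed only through their Ybx1-KO mean, as did 7234 of the tested genes against 951 that passed through control alone, and such genes had to stand higher in Ybx1-KO. The exact two-sided permutation test over 20 assignments cannot go below 0.1, which it reached for Foxa2 and Lmx1a. It gave 0.2 for Shh, Foxa1, Gli1 and Ptch1, 0.3 for Nkx2-9 and Spon1 and 0.6 for Gli3. With CPM from library totals alone, 7 of the 9 reached 0.1 with Ybx1-KO above, all but Nkx2-9 and Gli3, where 5.87% of tested genes had no overlap in that direction.

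**Figure D1:**
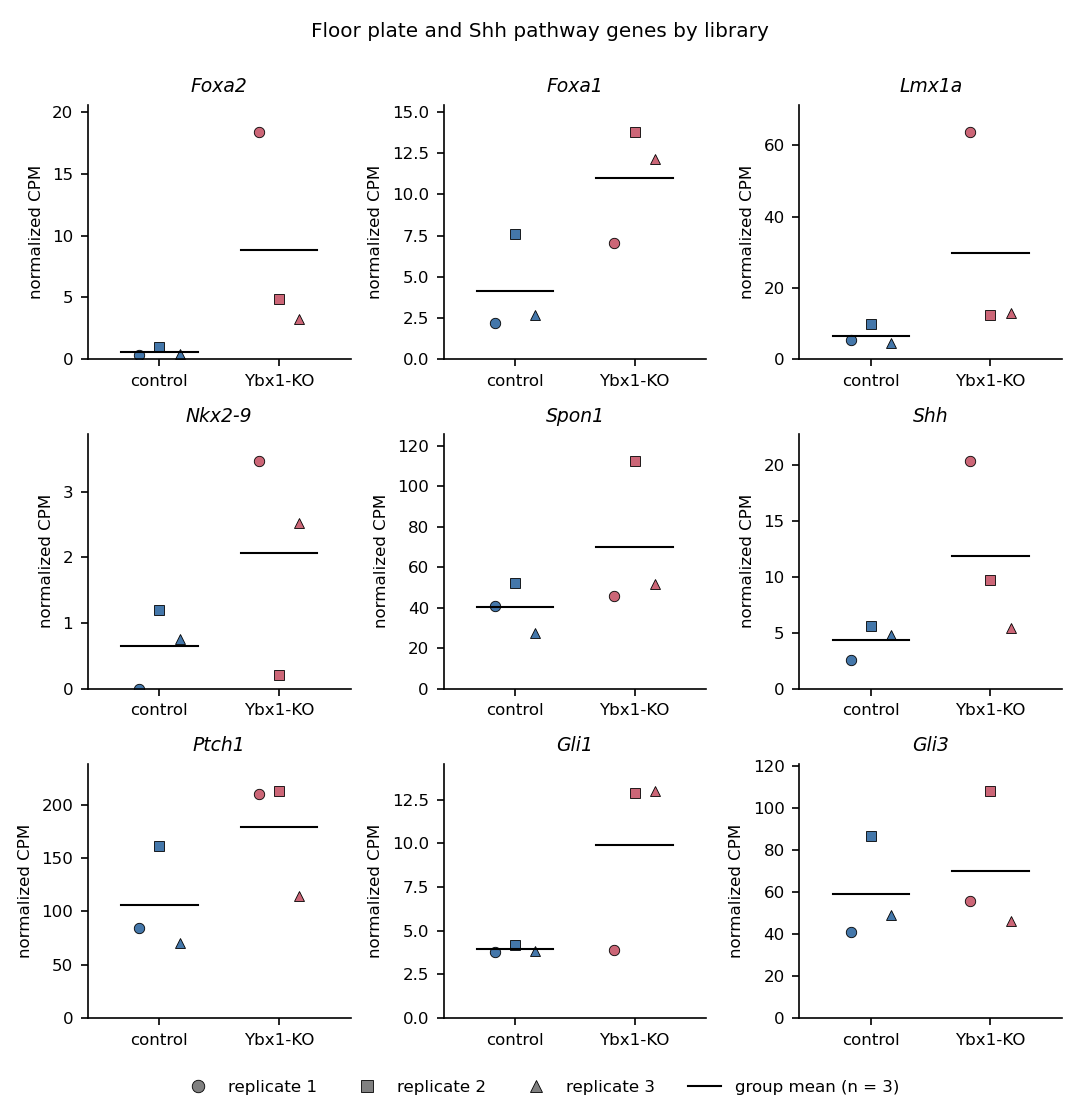
TMM-normalized CPM of the 9 genes (linear axes from 0) in each library, with controls in blue, Ybx1-KO in red, symbols for replicates 1 to 3 and lines for group means (n = 3). Foxa2 and Lmx1a in Ybx1-KO lie above every control, with Ybx1-KO 1 far above the rest, while Gli1 is high only in Ybx1-KO 2 and 3.

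Foxa2, the forkhead transcription factor that specifies floor plate cells, lies on the minus strand at chr2:148042877-148046969 (GRCm38). It stood at 0.331, 1.01 and 0.400 normalized CPM in control libraries 1, 2 and 3 (7, 22 and 8 counts) and at 18.4, 4.91 and 3.22 in Ybx1-KO libraries 1, 2 and 3 (165, 48 and 23 counts). No control reached the lowest Ybx1-KO library, and Ybx1-KO 1 was the highest by a wide margin. The mean was 8.85 ± 8.33 in Ybx1-KO against 0.581 ± 0.376 in control (SD, n = 3 each). The log2 fold change was 3.91 ± 0.96 (SE, n = 3 per group, edgeR adjusted p = 0.262), and 87.4% of all tested genes had a lower one. Foxa2 was called with DESeq2 (adjusted p = 0.00451), without a filter in edgeR (adjusted p = 0.0129), and in edgeR without Ybx1-KO 2 (adjusted p = 0.0207) or without Ybx1-KO 3 on the same genes (adjusted p = 0.0386). That last call was lost when the filter was applied again to the 5 libraries left, with a log2 fold change of 4.35 (edgeR adjusted p = 0.255). Leaving out Ybx1-KO 2 gave 283 of 21329 genes called higher, and leaving out Ybx1-KO 3 on the same genes gave 27. Over all alternatives for Foxa2 the adjusted p ran from 0.00451 to 0.787. Without Ybx1-KO 1 the log2 fold change was 2.78.

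Foxa1, a related forkhead factor that is also made in the floor plate, lies on the minus strand at chr12:57540628-57546916. Control libraries 1, 2 and 3 held 2.17, 7.60 and 2.70 normalized CPM, and Ybx1-KO libraries 1, 2 and 3 held 7.03, 13.8 and 12.2. Control 2 was above Ybx1-KO 1, so the groups overlapped. The means were 4.16 ± 2.99 in control and 11.0 ± 3.53 in Ybx1-KO (SD, n = 3 each), with a log2 fold change of 1.40 ± 0.64 (SE, edgeR adjusted p = 0.444). Without control 2 it was 2.17. Foxa1 did not share the Ybx1-KO 1 maximum of Foxa2. Per exon length (FPKM), the ratio of Foxa2 to Foxa1 was 0.214, 0.187 and 0.208 in control 1, 2 and 3 and 3.68, 0.499 and 0.371 in Ybx1-KO 1, 2 and 3, again without overlap.

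Lmx1a, a LIM homeobox factor of the roof plate and, in the midbrain, of the floor plate, lies on the plus strand at chr1:167689237-167848741. It was measured at 5.29, 9.72 and 4.60 normalized CPM in control 1, 2 and 3 and at 63.7, 12.4 and 13.0 in Ybx1-KO 1, 2 and 3. The groups did not overlap, although Ybx1-KO 2 and 3 were close to control 2. The mean of 29.7 ± 29.5 in Ybx1-KO rested largely on Ybx1-KO 1, against 6.54 ± 2.78 in control (SD, n = 3 each). The log2 fold change of 2.18 ± 0.60 (SE, edgeR adjusted p = 0.315) became 0.95 without Ybx1-KO 1. Lmx1a was called without a filter (edgeR adjusted p = 0.0179) and without Ybx1-KO 2 (edgeR adjusted p = 0.00411), with an adjusted p of 0.0694 in DESeq2. In those edgeR fits, 113 of 42828 genes were called higher without a filter and 283 of 21329 without Ybx1-KO 2.

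Nkx2-9, a homeobox gene of the cells beside the floor plate and a target of Shh signalling, lies on the minus strand at chr12:56611389-56613284 and was the member with the fewest counts. Control libraries 1, 2 and 3 held 0, 26 and 15 counts, and Ybx1-KO libraries 1, 2 and 3 held 31, 2 and 18. On the normalized scale these were 0, 1.20 and 0.750 CPM against 3.46, 0.204 and 2.52 CPM. Control 1 and Ybx1-KO 2 were both under 3 counts, which is the limit of detection at these depths, and the groups overlapped. The log2 fold change of 1.65 ± 1.78 (SE, edgeR adjusted p = 0.666) had an error larger than its size.

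Spon1 encodes F-spondin, an extracellular matrix protein secreted by the floor plate, and lies on the plus strand at chr7:113765998-114043370. It stood at 40.9, 52.1 and 27.7 normalized CPM in control 1, 2 and 3 and at 45.7, 112 and 51.5 in Ybx1-KO 1, 2 and 3. Only Ybx1-KO 2 lay above all controls. The means were 40.2 ± 12.2 and 69.8 ± 36.9 (SD, n = 3 each), and the log2 fold change was 0.80 ± 0.43 (SE, edgeR adjusted p = 0.450). It became 0.27 without Ybx1-KO 2.

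Shh, the ligand, lies on the minus strand at chr5:28456815-28467256. It was measured at 2.55, 5.62 and 4.75 normalized CPM in control 1, 2 and 3 (54, 122 and 95 counts) and at 20.3, 9.71 and 5.46 in Ybx1-KO 1, 2 and 3 (182, 95 and 39 counts). Ybx1-KO 3 was below control 2 by a small margin, and the other Ybx1-KO libraries were above every control. The means were 4.31 ± 1.58 and 11.8 ± 7.65 (SD, n = 3 each), with a log2 fold change of 1.46 ± 0.62 (SE, edgeR adjusted p = 0.444) that became 0.80 without Ybx1-KO 1. Exons of Shh share 446 bases with the antisense gene 9530036O11Rik (at most 10 counts in any library but Ybx1-KO 3, which had 52) and 361 with Gm26894, which had 3, 11 and 13 counts in control 1, 2 and 3 and 30, 18 and 9 in Ybx1-KO 1, 2 and 3. The strand setting of the counting is not given in the sources used here, so reads from these pairs cannot be told apart with certainty.

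Ptch1, the Shh receptor and a transcriptional target of the pathway, lies on the minus strand at chr13:63508328-63573598 and was the most abundant of the 9 genes. It stood at 84.8, 162 and 70.7 normalized CPM in control 1, 2 and 3 and at 210.4, 213 and 114 in Ybx1-KO 1, 2 and 3. Ybx1-KO 3 was below control 2, while Ybx1-KO 1 and 2 were above every control. The means were 106 ± 48.9 and 179 ± 56.3 (SD, n = 3 each), and the log2 fold change was 0.76 ± 0.45 (SE, edgeR adjusted p = 0.467). Without control 2 it was 1.20.

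Gli1, the activator that reads out the pathway, lies on the minus strand at chr10:127329882-127341974. Control libraries were close together, at 3.78, 4.19 and 3.85 normalized CPM for 1, 2 and 3. Ybx1-KO 1 lay among them at 3.91, whereas Ybx1-KO 2 and 3 stood at 12.9 and 13.0. So the library with the most Foxa2, Lmx1a and Shh had a control level of Gli1. The log2 fold change of Gli1 was 1.33 ± 0.64 (SE, n = 3 per group, edgeR adjusted p = 0.446). Exons of Gli1 share 265 bases with the antisense gene Gm47200, not analysed here, and 62 with Arhgap9 on the opposite strand, which had 85 counts in Ybx1-KO 3 and 4 to 44 in the others.

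Gli3, the Gli factor that acts mainly as a repressor, lies on the plus strand at chr13:15463235-15730026. It was measured at 40.9, 86.6 and 49.1 normalized CPM in control 1, 2 and 3 and at 55.5, 108 and 46.2 in Ybx1-KO 1, 2 and 3. The groups were interleaved. Its exons share 188 bases with Gm6556 on the opposite strand, which had 6 to 43 counts. The log2 fold change of 0.25 ± 0.43 for Gli3 (SE, edgeR adjusted p = 0.795) was below that of the median gene and became -0.21 without Ybx1-KO 2. Without Ybx1-KO 3 it was 0.45, above the median gene at -0.07. In FPKM, the ratio of Gli1 to Gli3 was 0.177, 0.0929 and 0.151 in control 1, 2 and 3 and 0.135, 0.229 and 0.541 in Ybx1-KO 1, 2 and 3, with Ybx1-KO 1 inside the control range. The ratio of Ptch1 to Gli3 was 1.40, 1.26 and 0.974 in control and 2.56, 1.33 and 1.67 in Ybx1-KO, and also overlapped.

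**Figure D2:**
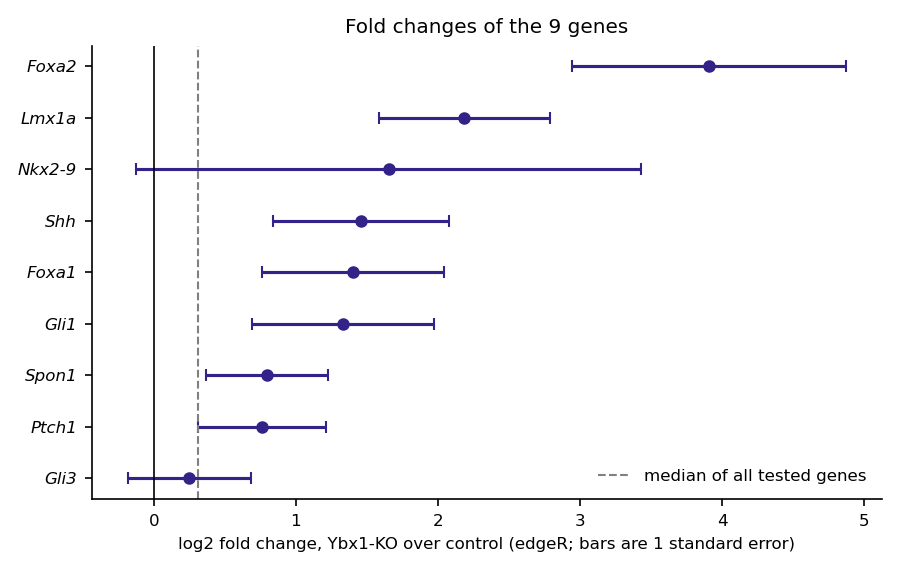
Log2 fold change of Ybx1-KO over control for each of the 9 genes, with bars of 1 standard error from edgeR (n = 3 per group), the zero line and a dashed line at the median of all tested genes (0.31). Foxa2 at 3.91 and Lmx1a at 2.18 lie farthest to the right, and Gli3 at 0.25 lies below the median gene.

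Compared per exon length, the order of levels in control was Ptch1 (7.01 FPKM), Gli3 (5.76), Spon1 (3.68), Lmx1a (1.81), Shh (1.42), Foxa1 (1.16), Gli1 (0.749), Nkx2-9 (0.470) and Foxa2 (0.229), each as a mean of 3 libraries. In Ybx1-KO it was Ptch1 (12.9 FPKM), Lmx1a (9.42), Gli3 (7.22), Spon1 (6.69), Shh (4.31), Foxa2 (3.92), Foxa1 (3.60), Gli1 (2.22) and Nkx2-9 (2.00). Foxa2 was last in control and sixth in Ybx1-KO. All 8 pairs of neighbours in each order had overlapping ranges, so no neighbouring ranks were separated by more than the spread of the libraries. In Ybx1-KO 3, where receptor genes had a mean of 0.954 FPKM and a 90th percentile of 2.31, Foxa2 stood at 2.05 FPKM and 12.5% of the receptor genes were at or above it. The corresponding share was 6.42% for Shh, 6.13% for Nkx2-9 and 3.12% for Gli1, and at most 1.45% for the other 5 genes.

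Without Ybx1-KO 3, the groups of 4 of the 9 genes (Foxa2, Lmx1a, Shh and Ptch1) did not overlap, where 10.3% of all tested genes stood higher in that way with 2 Ybx1-KO libraries left. With all 6 libraries it was 2 of 9, where 4.99% of tested genes had Ybx1-KO above and 8.17% had it below. The highest library was Ybx1-KO 1 for 4 genes (Foxa2, Lmx1a, Shh and Nkx2-9), Ybx1-KO 2 for 4 (Foxa1, Spon1, Ptch1 and Gli3) and Ybx1-KO 3 for Gli1. Among controls, control 2 was the highest for all 9 genes. Without Ybx1-KO 3 the log2 fold changes were 4.31 for Foxa2, 2.54 for Lmx1a, 1.79 for Shh, 1.49 for Nkx2-9, 1.30 for Foxa1, 1.05 for Gli1, 0.99 for Ptch1, 0.94 for Spon1 and 0.45 for Gli3. Higher values than with all 6 libraries were thus seen for 6 genes, and lower ones for Nkx2-9, Foxa1 and Gli1.

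**Figure D3:**
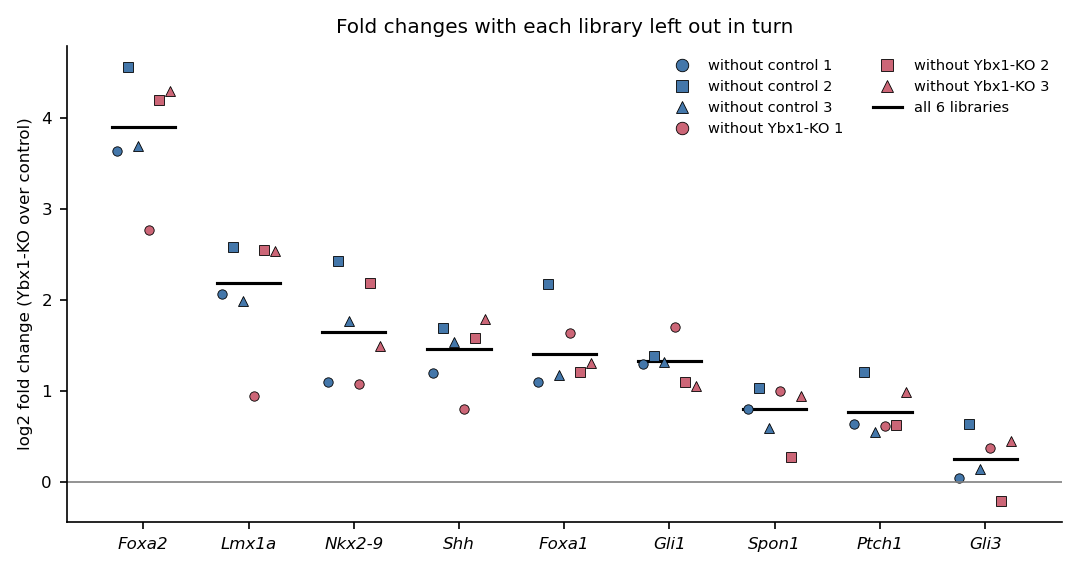
Log2 fold change (Ybx1-KO over control) of each gene with all 6 libraries (black line) and with each library left out in turn (symbols, blue for controls and red for Ybx1-KO). Foxa2 stays between 2.78 and 4.57, Lmx1a drops to 0.95 without Ybx1-KO 1, and Gli3 crosses zero to -0.21 without Ybx1-KO 2.

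The libraries also differed in transcripts that mark position along the neural tube. The summed level of 9 spinal cord and hindbrain Hox genes was 52.5, 406 and 118 normalized CPM in control 1, 2 and 3 and 631, 557 and 280 in Ybx1-KO 1, 2 and 3. Control 2, the highest control for each of the 9 genes, was thus also the control richest in Hox transcripts. In Ybx1-KO the correspondence was partial: Ybx1-KO 1 had the most Hox transcripts, but Gli1, Spon1, Gli3 and Foxa1 were within the control range there. The midbrain and hindbrain list, with Pax5 and En1 higher at an unadjusted p below 0.05, summed to 38.4, 291 and 63.1 in control 1, 2 and 3 and to 273, 297 and 125 in Ybx1-KO 1, 2 and 3. The forebrain list summed to 118 to 409 in control and 60.9 to 262 in Ybx1-KO, although Six3 in it was higher at an unadjusted p below 0.05. All 9 Hox genes were higher in Ybx1-KO (median log2 fold change 1.41), 7 of them at an unadjusted p below 0.05 (Hoxa2, Hoxa3, Hoxb4, Hoxc4, Hoxc6, Hoxb8 and Hoxc9), and none was called by edgeR. In bulk libraries, more cells of a type and more RNA per cell cannot be told apart.

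Divided by the summed Hox level of the same library, a scaling chosen after the data were seen, 3 of the 9 genes had a higher mean in Ybx1-KO and 6 a lower one. The divisor is itself higher in Ybx1-KO, so this scaling lowers every gene: 25.4% of all tested genes had a higher mean, and the median log2 ratio of group means over all of them moved from 0.31 to -1.78. All 9 genes lay above that median. Foxa2, which passed the filter only through its Ybx1-KO mean, was the one member with all Ybx1-KO libraries above the controls. Of all tested genes, 0.159% had all Ybx1-KO libraries above and 22.3% had all of them below. Foxa2 stood at 6.30, 2.50 and 3.39 CPM per 1000 CPM of Hox genes in control 1, 2 and 3 and at 29.2, 8.81 and 11.5 in Ybx1-KO 1, 2 and 3 (4.06-fold, exact permutation p = 0.1, the smallest possible). Lmx1a had nearly equal group means (1.04-fold) and overlapping groups. Shh stood at 48.6, 13.8 and 40.2 in control and at 32.2, 17.4 and 19.5 in Ybx1-KO, with overlap, and 70.6% of tested genes had a lower ratio of group means. Gli3 had every Ybx1-KO library below the controls, which stood at 779.5, 213 and 415 in control 1, 2 and 3. Its Ybx1-KO libraries 1, 2 and 3 stood at 88.0, 194 and 165. Gli3 was also nearest to the median gene, with 53.5% of tested genes lower. How much of each gene's difference goes with tissue composition was not tested beyond this scaling.

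**Figure D4:**
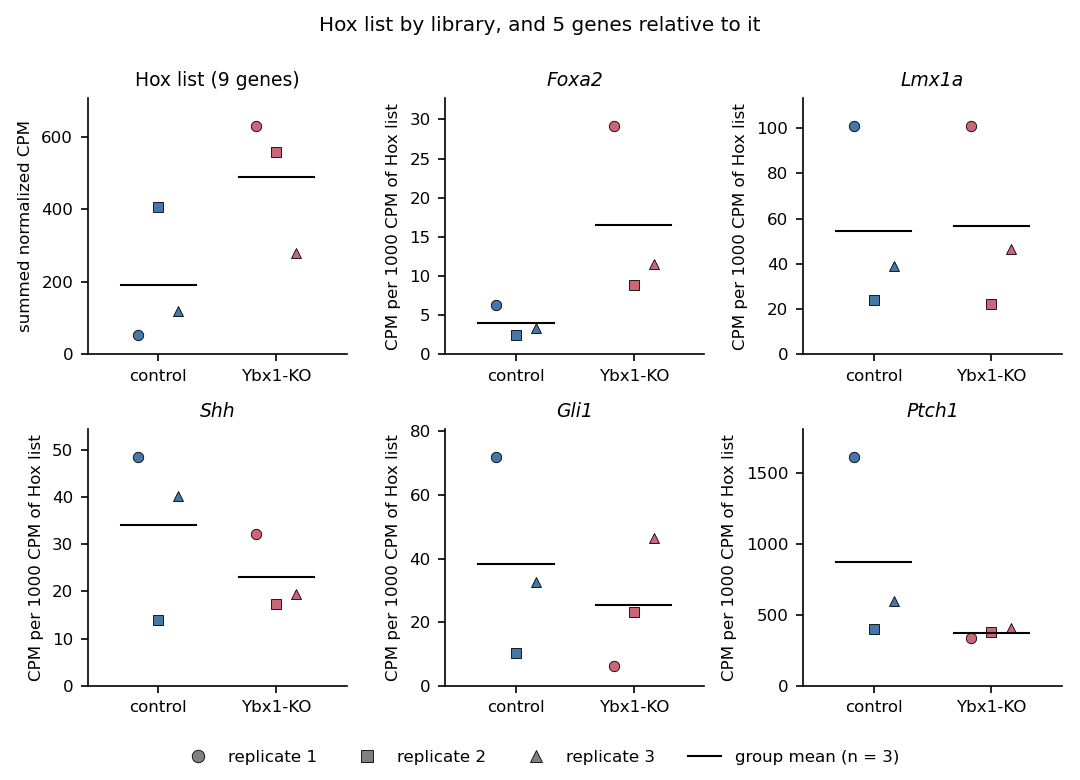
Summed normalized CPM of 9 Hox genes by library (first panel), and normalized CPM of 5 genes per 1000 CPM of that sum (other panels), with controls in blue, Ybx1-KO in red and lines for group means (n = 3). Foxa2 stays above all controls at 8.81 to 29.2, whereas Lmx1a, Shh, Gli1 and Ptch1 overlap with controls, and most genes shift downwards on this scale (median log2 ratio of all tested genes -1.78).

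The wider floor plate list held 18 genes, 6 of them among the 9, and 17 were tested. Of the 17, 16 were higher in Ybx1-KO, 8 at an unadjusted p below 0.05, 4 without overlap, and none was called by edgeR. Among all tested genes these shares were 61.3% higher, 6.96% at an unadjusted p below 0.05 and 4.99% without overlap. Foxa2, Nkx2-9 and Corin in this list passed the filter only through their Ybx1-KO mean, so their direction was fixed. The count of 8 was the same without Ybx1-KO 3. Of the 11 other tested genes alone, 10 were higher, 4 at an unadjusted p below 0.05 and 2 without overlap. Their median log2 fold change was 0.26 with all 6 libraries, no higher than the median gene. Corin, a membrane serine protease used as a floor plate marker, stood at 1.94, 2.40 and 0.700 normalized CPM in control 1, 2 and 3 and at 8.04, 8.48 and 10.2 in Ybx1-KO 1, 2 and 3. Its groups did not overlap and its log2 fold change was 2.40 (edgeR adjusted p = 0.384). Ntn1, the axon attractant netrin-1, followed Foxa2 in being highest in Ybx1-KO 1, at 90.8, 51.4 and 26.0 against 24.1, 29.7 and 18.4 normalized CPM, with overlap. The axon guidance gene Slit3 (log2 fold change 1.28) did not overlap between groups, and Nkx2-2, a ventral homeobox gene, was at 1.54 with overlap. Ferd3l was below the filter, at 0 to 7 counts.

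The list of direct Gli targets held 16 genes, 4 of them among the 9, and 12 were tested. Of these, 10 were higher and 2 lower, 5 at an unadjusted p below 0.05 upwards and 1 downwards, with none called by edgeR. Foxa2, Nkx2-9 and Gli1 in this list passed the filter only through their Ybx1-KO mean, so their direction was fixed. Without the 4 members, 6 of 8 tested targets were higher, 4 at an unadjusted p below 0.05. Among all tested genes these shares were 61.3% and 6.96%. Besides Foxa2, the 4 others upwards were Nkx6-1 (log2 fold change 1.75), Nkx6-2 (1.56, without overlap), Nkx2-2 (1.54) and Ccnd1 (1.11), which encode ventral progenitor factors and cyclin D1. The survival gene Bcl2 was the one downwards, at -0.91 with every Ybx1-KO library below the controls. Hhip, Foxf1, Foxf2 and Foxl1 were below the filter. Of 8 tested genes on the list of ventral progenitor genes, 7 were higher with a median of 1.55, 5 of them at an unadjusted p below 0.05 (Irx3 and Dbx1 besides those named). Olig2, also a listed target, was at 0.07 and Foxj1 at -0.08. Dbx2 passed the filter only through its Ybx1-KO mean, so its direction was fixed. The 9 dorsal progenitor genes were all higher too, with a median of 0.94, and Msx1, Msx2 and Atoh1 among them did not overlap. The difference between the ventral and dorsal lists was not tested.

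Outside Shh, Ptch1, Gli1 and Gli3, 28 of 31 listed pathway genes were tested. In all, 16 were higher and 12 lower, and none was called by edgeR. Their median log2 fold change was 0.19, below the median gene with all 6 libraries. With Shh, Ptch1, Gli1 and Gli3 included, the list median was 0.26 against 0.31 for the median gene. Without Ybx1-KO 3 it was 0.22 against -0.07, so that the list then lay above the median gene. The other ligands, Ihh and Dhh, were below the filter. All 5 genes for acylation and release of Shh were higher (median 0.69). Among them Scube2, which helps release the lipid-bearing ligand, stood at 5.48, 11.2 and 4.10 normalized CPM in control 1, 2 and 3 and at 18.3, 11.9 and 20.0 in Ybx1-KO 1, 2 and 3, without overlap (log2 fold change 1.27, edgeR adjusted p = 0.443). Of 6 receptors and co-receptors 5 were higher, with Smo at 0.16 and Cdon lower at -0.68. Of 9 tested inhibitors 3 were higher and 6 lower (median -0.04), and Gpr161, a ciliary inhibitor, did not overlap and was lower at -0.63. Of 8 cilium genes 3 were higher and 5 lower (median -0.40), with the kinesin gene Kif3a lower in every Ybx1-KO library (-0.93, edgeR adjusted p = 0.443).

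**Figure D5:**
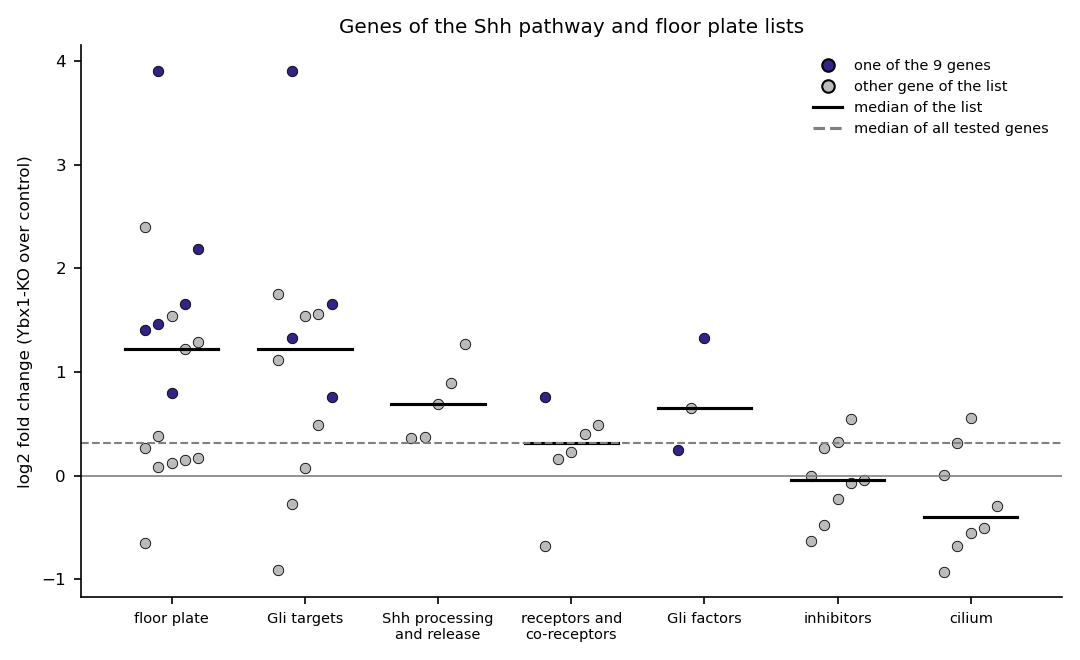
Log2 fold change (Ybx1-KO over control) of each tested gene of the floor plate, Gli target and pathway lists, dark for the 9 genes and grey for others, with a black line for each list's median and a dashed line for the median of all tested genes (0.31). The floor plate and target lists have medians of 1.22 with the members included, and of 0.26 and 0.80 without them. The inhibitor and cilium lists lie at -0.04 and -0.40.

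Other sources of Foxa2, Shh and Lmx1a transcripts were looked at through marker lists. The notochord also makes Foxa2 and Shh. Its defining factor T had 3, 1 and 1 counts in control 1, 2 and 3 and 0, 1 and 20 in Ybx1-KO 1, 2 and 3, a level at or near the floor in every library but Ybx1-KO 3. Noto had 0 counts in Ybx1-KO 1 and 2 and 9 in Ybx1-KO 3. Krt18 and Nog, which other cells express too, were highest in Ybx1-KO 1, at 15.8 and 15.2 normalized CPM against at most 3.30 in control. All 3 notochord markers that were tested (Krt18, Nog and Col2a1) were higher, with a median log2 fold change of 1.65. The summed level of 7 notochord markers, mostly Col2a1, was 75.8 to 82.8 in control and 75.6 to 141 in Ybx1-KO, and that of 11 endoderm markers 11.0 to 16.8 and 6.70 to 51.2, highest in Ybx1-KO 3.

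Of 7 midbrain dopaminergic markers, whose progenitors express Lmx1a and Foxa2, 5 were tested. All 5 were higher (median 0.90), where 61.3% of all tested genes were. Pitx3 and Slc6a3 were below the filter, with 0 counts in Ybx1-KO 1 and 2. They had 19 and 18 counts in Ybx1-KO 3 and 0 to 9 in the controls. Th (log2 fold change 1.46) and Slc18a2 (0.37) did not overlap, and En1 was highest in Ybx1-KO 1. Of 7 tested sclerotome and mesenchyme markers 6 were lower, among them Col1a1, Col1a2, Col3a1 and Lum, and their summed level was 135 to 792 in control and 84.2 to 138 in Ybx1-KO. Pax1 was the exception, at 27.7, 6.03 and 5.88 normalized CPM in Ybx1-KO 1, 2 and 3 against 2.22, 2.90 and 1.85 in control (log2 fold change 2.50, edgeR adjusted p = 0.328), the same order of Ybx1-KO libraries as Foxa2. Pax1 passed the filter only through its Ybx1-KO mean, so its direction was fixed. The part of these cell types in the levels of the 9 genes was not tested.

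Markers of the sorted cells were present in both groups. Sox2 stood at 17.2, 42.3 and 47.6 normalized CPM in control 1, 2 and 3 and at 33.0, 49.8 and 23.8 in Ybx1-KO 1, 2 and 3. The summed level of 11 progenitor markers was 1553 to 1714 in control and 1266 to 2049 in Ybx1-KO. Of these markers 8 were higher and 3 lower, where 61.3% of all tested genes were higher. Nes, Hes5, Hes1 and Notch1 were higher at an unadjusted p below 0.05, and Prom1 did not overlap. The lower ones were Fabp7 (log2 fold change -0.66), Sox1 (-0.53) and Sox2 (-0.005). The summed level of 10 neuron markers was 3241 to 4801 in control and 1360 to 3607 in Ybx1-KO, with Snap25 and Syt1 lower in every Ybx1-KO library. Roof plate and choroid plexus markers, which matter for Lmx1a, summed to 707, 47.1 and 946 in control 1, 2 and 3 and to 72.9, 83.1 and 55.8 in Ybx1-KO 1, 2 and 3, a sum that was mostly the choroid plexus gene Ttr, whose groups overlapped. Kcnj13, also of the choroid plexus, was lower in every Ybx1-KO library. The roof plate genes went the other way. Msx1 stood at 20.1, 14.3 and 5.88 in Ybx1-KO 1, 2 and 3 against 2.74, 4.29 and 3.90 in control, without overlap and, like Lmx1a, highest in Ybx1-KO 1 (log2 fold change 1.88, edgeR adjusted p = 0.381). Gdf7 was highest in Ybx1-KO 2, and Wnt3a, below the filter with 2 to 16 counts, did not overlap with Ybx1-KO above. Ventral forebrain markers (Lhx6, Lhx8 and Dlx1 lower at an unadjusted p below 0.05) summed to 38.4 to 382 in control and 42.7 to 75.3 in Ybx1-KO. Erythroid markers (Hbb-bs, Hbb-bt and Alas2 lower) summed to 515 to 1199 in control and 191 to 1163 in Ybx1-KO, and endothelial markers to 17.6 to 39.1 and 11.3 to 33.6.

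Foxa2 and Foxa1 differ in their genomic surroundings. Within 1000 kb of Foxa2, 13 of 21 protein-coding genes were tested, 7 of them higher and 2 higher at an unadjusted p below 0.05. Among all tested genes these shares were 61.3% and 6.96%. All of the 7 but Nkx2-2 passed the filter only through their Ybx1-KO mean, so their direction was fixed. Of the 7, 4 had 0 counts in Ybx1-KO 1 and 2 and were higher through Ybx1-KO 3 alone. Without that library 4 genes were higher, 3 of them at an unadjusted p below 0.05, where 5.84% of all tested genes were. Xrn2 was lower in every Ybx1-KO library (log2 fold change -1.11, edgeR adjusted p = 0.413). The 2 higher at an unadjusted p below 0.05 with all libraries were Nkx2-2 and Pax1. They lie at 849 and 650 kb from Foxa2, both on the same side. Nkx2-4 on that side was likewise highest in Ybx1-KO 1 (16.0 normalized CPM against at most 1.80 in control). Within 1000 kb of Foxa1, 2 of 8 genes were tested, one of which was Nkx2-9 at 927 kb.

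The protein-coding genes whose level followed that of a member most closely were ranked by Pearson correlation of log2(normalized CPM + 0.5) over the 6 libraries. The 15992 genes compared had a mean of at least 1 normalized CPM in Ybx1-KO. No minimum was set on control, so genes near 0 there could enter, while genes low in Ybx1-KO could not. A likeness to members that are high in Ybx1-KO is partly fixed by that choice. The values are a description of these libraries, which fall into 2 groups. For Foxa2 they were Tead2 (r = 0.998), Rhd, Gldc, Urm1 and Nrarp (0.988). For Shh they were Foxm1 (r = 0.994), Mpi, Cdc25a, Lmtk3 and Tmem41a (0.991). For Gli1 they were Prss27 (r = 0.998), Insc, Gata4, Foxl2 and Selenov (0.992). Prss27, Gata4 and Foxl2 were below 0.3 CPM in the controls and Ybx1-KO 1. The genes most like Foxa2 and Shh were highest in Ybx1-KO 1, and those most like Gli1 were high in Ybx1-KO 2 and 3.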

How the data were processed

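RNA-seq of 6 libraries of Sox2-eGFP-sorted NPCs was used. The authors extracted total RNA, made stranded total RNA libraries, sequenced them paired-end and counted read pairs on genes with HTSeq 0.6.1p1. They deposited raw read counts per gene symbol, 1 table per library, neither filtered nor normalized. The submitters' processing notes name GRCm38.p5 and mm10. The aligner, the strand setting and the sequencer of each library are not given in the sources used here. Tallies of pairs outside genes were kept out of library sizes and ranged from 30.6% to 59.5% of pairs. Libraries held 4743279 to 23883542 counts. No pair of libraries agreed within sampling noise.

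Counts were tested in R 4.3.3 with edgeR 4.0.16 (TMM, quasi-likelihood test, Benjamini-Hochberg adjustment over all tested genes), calling an adjusted p below 0.05 with a fold change above 1.5. The filter required a mean above 1 FPKM in at least 1 group. FPKM used counts on genes and union exon lengths of GENCODE M21 on GRCm38, where 47624 of 51733 symbols matched, 365 matched by an older symbol and 3744 did not. Coordinates come from that annotation. Normalized CPM uses TMM-scaled library sizes. Single genes were compared by an exact permutation test. The authors' own test, limma-voom (limma 3.58.1), and DESeq2 1.42.0 were alternatives, with other scalings, filters and left-out libraries. The Hox scaling and the counts of members under each alternative were added after seeing the data. The tests were tested on simulated data. Figures were drawn with matplotlib 3.10.9.

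The 9 genes and all gene lists were chosen with earlier results of these data known. Other genes were named if they belonged to a list and had an unadjusted p below 0.05 or no overlap between groups, or, for Foxa2, Shh and Gli1, were among the 5 genes most correlated with them. Genes near Foxa2 and Foxa1 and further list genes were named after their values were seen. A few list genes that meet this rule are not reported here.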

Additional observations from a re-analysis of the deposited data

Results flagged for a closer look

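In Ybx1-KO library 3, 59.5% of read pairs lay outside genes, above the 36.2% to 46.7% of the control libraries. This stands out because these tallies enter none of the comparisons. The log2 fold changes and the overlap between groups of the 9 genes without that library are given above.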

How the results depend on the processing

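Of 162 alternative values for the 9 genes, 1 changed sign, Gli3, whose log2 fold change ran from -0.21 without Ybx1-KO 2 to 0.64 without control 2, and 6 brought a call, of Foxa2 (log2 fold change 4.00 with DESeq2, 3.85 without a filter, 4.20 without Ybx1-KO 2 and 4.31 without Ybx1-KO 3, the last lost at 4.35 with the filter applied again) and of Lmx1a (2.12 without a filter and 2.55 without Ybx1-KO 2). Genes called over the whole table numbered 0 with edgeR in either direction, 118 higher and 96 lower with DESeq2, and 113 higher and 80 lower without a filter. With single libraries left out they ran from 0 to 283 higher and from 0 to 137 lower, the most without Ybx1-KO 2. Without Ybx1-KO 3 they numbered 27 higher and 19 lower, and 0 in either direction with the filter applied again. Members higher at an unadjusted p below 0.05 numbered 4 (6.96% of all tested genes), against 7 with DESeq2 (8.85%) and 2 to 5 with single libraries left out (2.93% to 11.4%). Members without overlap numbered 2, and 4 without Ybx1-KO 3. List medians with single libraries left out ranged from -0.058 to 0.39 for the pathway, 0.96 to 1.69 for Gli targets and 0.80 to 1.40 for the floor plate. The median of all genes was 0.31 and moved to 0.51 with library totals only, to 0.15 with limma-voom, to 0.70 over the larger gene set without a filter and to -0.07 without Ybx1-KO 3. Relative to the Hox list, a scaling that moved the median of all genes to -1.78, the log2 ratio of group means was -0.064 for Foxa1, -0.57 for Shh, -1.32 for Spon1, -0.60 for Gli1, -1.66 for Gli3 and -1.22 for Ptch1. The cause of these shifts was not tested. No paired analysis was possible because the groups share no replicate numbers from the labels. The biological coefficient of variation estimated over all genes was 0.8, and the levels of Foxa2 in control and of Nkx2-9 rest on few counts.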
